A study of Mus musculus with 6 samples.

Results

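Small RNA reads that lie on more than 1 piRNA gene were examined in purified E13.5 primordial germ cells, the precursors of sperm, from male mouse embryos. A piRNA gene is here all cluster transcripts of 1 name, and a sequence was taken as shared when its places in the 6 libraries, pooled, lay on at least 2 piRNA genes. Of 27231 distinct sequences, 8084 were shared and 19147 lay on 1 piRNA gene (called single-gene below). The 3 control libraries are titled noIR and the 3 IR libraries IR, for ionizing radiation. The titles do not say whether embryos or isolated cells were exposed. The labels name no dose, time after exposure, strain or genotype, and they do not say whether replicates came from separate animals. The p-values are thus set by the spread of 3 libraries a group, and that spread may be technical.

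PIWI-interacting RNAs (piRNAs) are small RNAs that guide PIWI proteins to transposon transcripts in germ cells. They are cut from long precursor transcripts of genomic clusters and often start with U, written T in these reads. Clusters hold copies of transposons and other repeats, so that 1 read can match several clusters, and a short read alone does not tell which of them it came from. B1 and B2 are short interspersed elements (SINEs) that occur in many copies in the mouse genome. B1 descends from the 7SL RNA gene and B2 from a tRNA gene, and 4.5SH RNA is a small rodent RNA related to B1. U2 snRNA is a part of the spliceosome.

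Some of the most abundant shared sequences are printed first because many of the values below rest on them. Shorter and longer forms of these reads are left out, among them the first 20 bases of the first read alone, with 410 copies. The type in each name rests on general knowledge of these RNAs, since no repeat annotation was used. Reads are printed 5′ to 3′ in lower case, and capitals mark the bases beyond the first 20.
tRNA-Ala-type: ggggatgtagctcagtggtaGAGC
tRNA-Ala-type, T-ended: ggggatgtagctcagtggtaGAGT
U2-type a: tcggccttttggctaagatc
U2-type b: ggccttttggctaagatcaaGTGTAGTA
4.5SH-type: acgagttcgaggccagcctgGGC
The next set is shown because its members had fewer copies in the IR libraries than in the controls, some of them past the test described below.
B1-like a: aggcagaggctggcggatctCC
B1-like a, A-ended: aggcagaggctggcggatctCA
B1-like b: cgccactactgcccggctcc
B1-like c: aagccgggccgtagtggcgcA
B2-like a: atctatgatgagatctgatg
B2-like b: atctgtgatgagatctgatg
B2-like c, its first 20 bases: atccgtgatgagatctgact

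Positions are counted from 1 at the 5′ end. The T-ended read differs from the tRNA-Ala-type read by C24T, the A-ended B1-like read from B1-like a by C22A, and B2-like b from B2-like a by A5G. Some changes at the last base came with another set of genes and others did not. The tRNA-Ala-type read had 2 places, on pi-D10Wsu102e and pi-Ppp1r15b, and its T-ended form had 5 places on 4 genes, with 2-qE1-35981 and 9-qC-10667 added. The A-ended form of the same read, C24A, stayed on the first 2 genes. The A-ended form of B1-like a added pi-Fbxl18 to its set, and its G-ended form, C22G, kept the set. The tRNA-Ala-type read and its T-ended form had the same position on pi-D10Wsu102e. B1-like a and its A-ended form had the same position on 15-qE1-1119. At least 1 read of each pair was thus placed with a mismatch, and the sets of genes need not be sets of exact matches. A place is a position on 1 transcript, and each transcript variant of a gene counts as a place of its own.

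The reads repeated most often across clusters were rare in copies. Of the shared sequences, 198 had 20 places or more, and the highest number was 89 places on 39 piRNA genes. The 198 had 221 copies in all. For these, the 10-base words found in most of the sequences were CACAGAGAAA in 14.1%, AGGGCTACAC in 13.1% and CCTGGCTGTC in 13.1%, each searched on both strands. The same words were found in 0.743%, 0.372% and 0.345% of sequences at 2 to 4 places. They were found in 0.245%, 0.172% and 0.319% of single-gene sequences. The words were picked for their frequency in the first class, so the contrast is a description. From the reads with most places, 3 are given here, and capitals mark the words or their reverse complements.
82 places, 37 genes: cccagGACAGCCAGGgcttca
77 places, 37 genes: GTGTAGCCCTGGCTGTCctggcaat
73 places, 32 genes: ctgtgtggcCCTGGCTGTCctggg
In letters these reads resemble the 3′ part of B1. Each had 1 copy in 1 library.

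The files held 10066, 8037 and 10814 copies in the controls and 11280, 11278 and 7788 in the IR libraries. These totals count only reads on cluster transcripts and are not library depths. A count of 0 allows up to 3 copies, which is 0.0266% to 0.0385% of a file and covers counting error only. Marker genes of germ cells, Sertoli, Leydig, endothelial and blood cells and of the piRNA pathway host none of the shared reads, so the labelled cell type could not be checked from them. Of 6 p53 target genes, Zmat3 alone gives its name to a piRNA gene with shared reads, 14 sequences with 7 control and 7 IR copies.

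Shared sequences held 13009 copies, against 46254 for single-gene sequences. They took 22.2%, 20.2% and 22.8% of copies in the controls and 20.1%, 22.3% and 24.4% in the IR libraries. The groups overlapped, and the shares, 21.8% ± 1.35 (SD, n = 3) and 22.2% ± 2.16 (SD, n = 3), did not pass the test (exact two-sided permutation p = 0.9). With 3 libraries a side this exact test cannot go below p = 0.1. Most shared sequences were rare: 7284 (90.1%) had a single copy, 7574 occurred in 1 library and 40 in all 6. The 10 most abundant held 15.5% of the shared copies. Copies per distinct sequence were 1.52, 1.56 and 1.51 in the controls and 1.28, 1.35 and 1.46 in IR, without overlap (exact permutation p = 0.1, unadjusted).

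Most clusters held shared reads. Of 214 piRNA genes with reads, 193 had shared reads, and 5366 of 18528 possible pairs of these genes (29%) held a sequence in common. At least 94.4% of shared sequences lay on genes of 2 or more chromosomes, counted from the genes and bands that name them. The sequences fell into 3241 combinations of genes, and 2329 combinations had 1 sequence. There were 3312 sequences on 2 genes, 1651 on 3 and 275 on 10 or more.

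By number of places, 3766 sequences with 6128 copies had 2 to 4 places and 4120 with 6660 copies had 5 to 19. The class of 2 to 4 places took 45.7%, 49.1% and 48.6% of shared copies in the controls and 45.0%, 45.3% and 50.0% in IR (exact permutation p = 0.8). The class of 20 or more took 2.10%, 0.983% and 1.62% in the controls and 1.86%, 1.75% and 1.69% in IR (exact permutation p = 0.7). The class of 5 to 19 places held the rest (exact permutation p = 0.8), and none of the 3 classes separated the groups.

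The strands of their places set shared reads apart from the rest. A read antisense to the cluster transcript could pair with it. Of shared sequences 69.25% had places on both strands, 16.8% on the sense strand only and 13.95% on the antisense strand only. Both strands were held by 51.4% of the sequences at 2 to 4 places, 84.1% at 5 to 19 and 100% at 20 or more, but by 0.183% of single-gene sequences. More places give more chances for both strands, so this order is a description. An antisense share was computed with the copies of a sequence divided over its places. It was 55.0%, 57.6% and 53.6% of shared copies in the controls and 52.1%, 52.4% and 55.2% in IR. In single-gene reads it was 29.0%, 31.9% and 25.8% in the controls and 28.7%, 31.4% and 27.7% in IR. Shared reads were more antisense in 6 of 6 libraries, by 25.2 percentage points on average (exact two-sided sign-flip test over libraries, p = 0.031, adjusted p = 0.0469 over 3 such tests). This p is the smallest that 6 libraries can give. By this division a sequence with places on both strands counts in part as antisense, whichever strand its copies came from. Such sequences were 69.25% of shared but 0.183% of single-gene sequences. The test thus cannot tell a strand preference of the reads from the way places are counted. The tRNA-Ala-type reads are antisense at all their places on the main pair of genes, and without the sequences that share their first 20 bases the difference was 19.6 points (exact sign-flip p = 0.031).

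**Figure D1:**
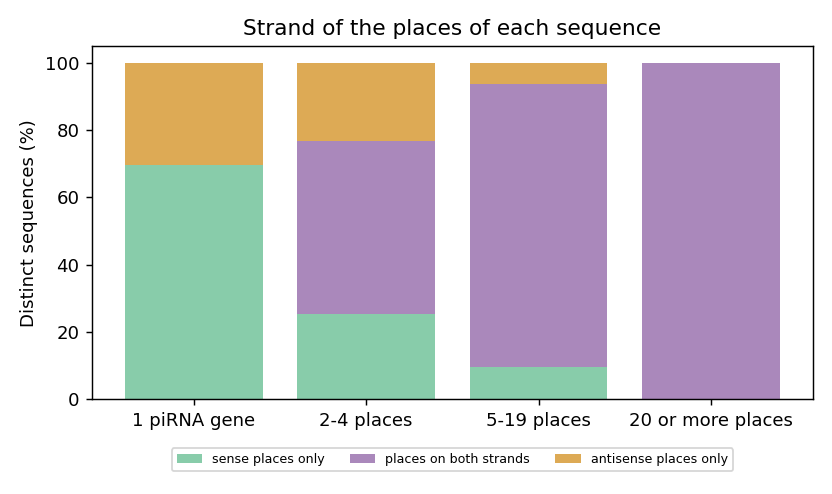
Share of distinct sequences (%) with sense places only, antisense places only or both, for single-gene sequences and for shared sequences at 2 to 4, 5 to 19 and 20 or more places, all 6 libraries pooled. Both strands were held by 0.183%, 51.4%, 84.1% and 100% of sequences from left to right.

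Within the class of 5 to 19 places the antisense share was 53.7%, 52.7% and 50.4% in the controls and 47.0%, 47.4% and 44.1% in IR. The groups did not overlap (exact permutation p = 0.1, unadjusted). For all shared copies they did overlap (exact permutation p = 0.3, adjusted p = 0.6 over 8 comparisons between the groups). The class of 5 to 19 places holds B1-like a and c, at 83.3% and 100% antisense places, whose copies are compared below. Its antisense share was not computed without them, so it is not a separate result from theirs. Of 54 values computed per library for the classes, 11 separated the groups.

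A first T, the usual first base of piRNAs, was less frequent in shared reads, counted first over all lengths. It began 22.0%, 20.8% and 21.3% of shared copies in the controls and 25.8%, 27.3% and 21.8% in IR. Single-gene copies began with T in 38.5%, 35.8% and 32.03% in the controls and 33.4%, 34.9% and 33.3% in IR. The share was lower in shared reads in 6 of 6 libraries, with a mean difference of -11.5 points (exact sign-flip p = 0.031, adjusted p = 0.0469). With each distinct sequence counted once the difference was -2.94 points (exact sign-flip p = 0.09375), so repeated copies carry much of it. In reads of 24 to 32 nt only, the difference was -7.005 points (exact sign-flip p = 0.031). Over all lengths, without the 10 most abundant shared sequences, it was -8.12 points (exact sign-flip p = 0.031). Without the sequences that share the first 20 bases of the tRNA-Ala-type read it was -8.40 points (exact sign-flip p = 0.031). These omissions take out shared reads only. Of the single-gene copies, pi-D730040F13Rik alone held 2664, 2285 and 3170 in the controls and 3195, 3059 and 2111 in IR. All single-gene copies were 7827, 6410 and 8346 in the controls and 9017, 8765 and 5889 in IR. The differences in first T, strand and length were not computed without this gene. Between control and IR, first T in shared copies differed by 3.58 points and IR replicate 3, at 21.8%, lay below control replicate 1, at 22.0% (exact permutation p = 0.2, adjusted p = 0.533).

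**Figure D2:**
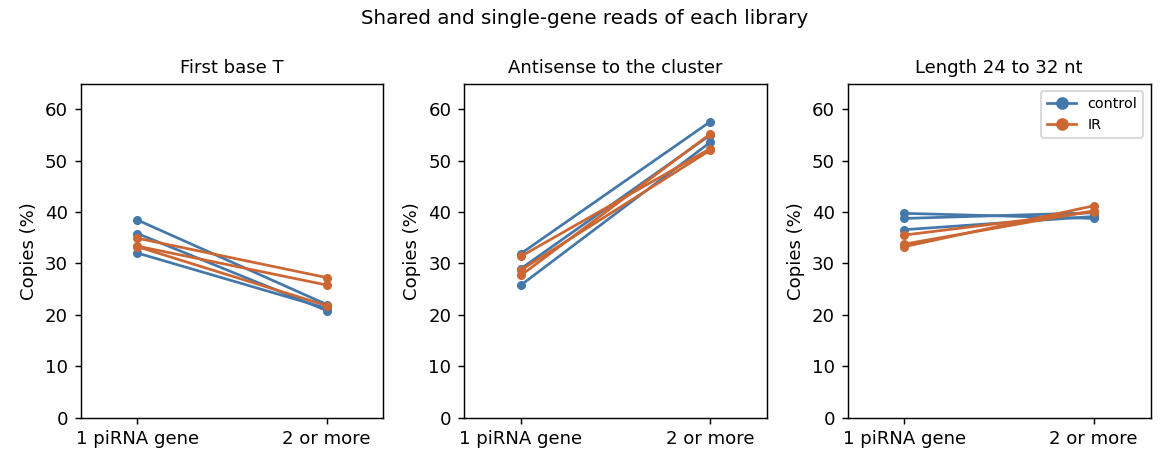
Share of copies (%) that begin with T, that are antisense to the cluster transcript and that are 24 to 32 nt long, in single-gene and in shared reads, with 1 line per library (blue control, orange IR). First T is lower and antisense higher in shared reads in 6 of 6 libraries, and the lengths cross in 1 control library. For the antisense share copies are divided over places, so sequences with places on both strands count in part as antisense.

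Length was measured because piRNAs are longer than microRNAs, with 24 to 32 nt taken as the piRNA range. Of shared copies 38.8%, 39.1% and 39.9% were of that length in the controls and 40.3%, 40.1% and 41.2% in IR. The groups did not overlap and differed by 1.26 points (exact permutation p = 0.1, adjusted p = 0.4). With each distinct sequence counted once the difference turned to -0.815 points. Single-gene copies of 24 to 32 nt made 39.8%, 36.6% and 38.8% in the controls and 33.8%, 35.5% and 33.3% in IR. Shared minus single-gene shares were -0.993, 2.57 and 1.10 points in the controls and 6.48, 4.53 and 7.95 in IR. The mean over 6 libraries was 3.61 points (exact sign-flip p = 0.062), and the IR differences all lay above the control ones (exact permutation p = 0.1, adjusted p = 0.4, a comparison chosen after seeing the data).

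A single family made much of a peak at 24 nt. Reads of exactly 24 nt were 12.2%, 13.9% and 12.6% of shared copies in the controls and 11.5%, 10.9% and 16.8% in IR, against 3.29% to 4.10% of single-gene copies. The 38 shared sequences with the first 20 bases of the tRNA-Ala-type read held 11.5% of shared copies, and 8 of them of 24 nt held 47.2% of all shared 24-nt copies. Without these 38, reads of 24 nt made 7.34%, 7.45% and 8.01% in the controls and 7.77%, 7.23% and 7.97% in IR. That was still above the single-gene shares. The mean excess of 24 to 32 nt over single-gene reads was then 1.16 points (exact sign-flip p = 0.5).

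At 42 nt shared reads held a second rise in the controls, 2.23%, 1.91% and 2.55% of shared copies, against 1.28%, 1.11% and 0.948% in IR. The groups did not overlap (exact permutation p = 0.1, a length chosen after seeing the data). Single-gene reads of 42 nt did overlap, at 1.20%, 1.31% and 1.34% against 1.46%, 0.935% and 1.24%. Of 219 shared copies of 42 nt, 53 lay on 14-qC1-1010, 14-qC1-1261 and pi-Zfp382 together and 52 on 10-qC1-12816 and pi-Phf20. Both of these combinations are described again below.

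**Figure D3:**
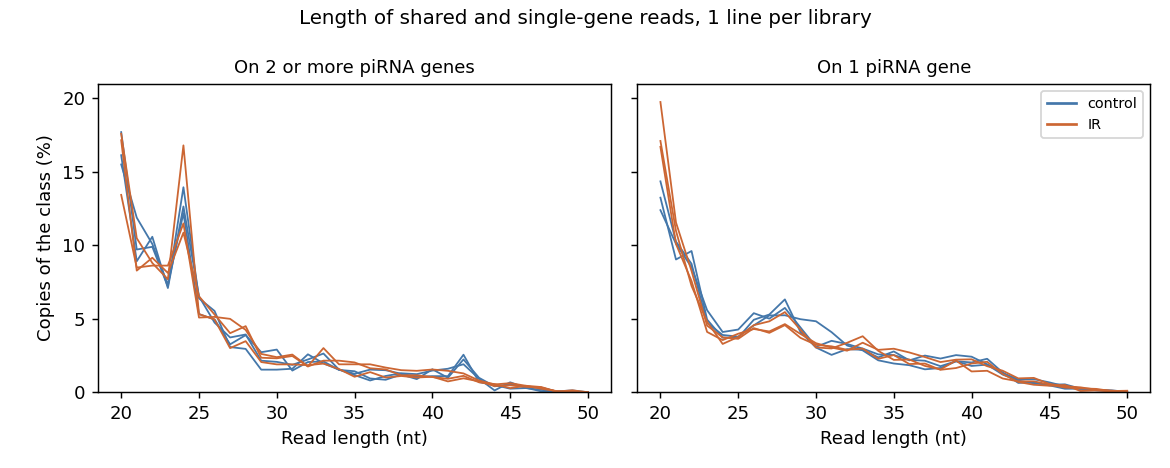
Share of copies (%) at each read length from 20 to 50 nt for shared (left) and single-gene reads (right), with 1 line per library. Shared reads show a peak at 24 nt, of 10.9% to 16.8%, which is 3.29% to 4.10% in single-gene reads, and controls a small rise at 42 nt.

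Shared reads also matched annotated transcripts in the antisense direction more often than single-gene reads did. An exact match to GENCODE M21 transcripts was found in the sense direction for 38.6% of shared and 34.7% of single-gene sequences. In the antisense direction it was found for 37.1% and 11.4%. Matches to 5 or more genes in the sense direction were found for 17.7% of shared and 4.57% of single-gene sequences. More matches give more chances for both directions, so the antisense contrast is a description. U2-type b matched 23 annotated genes, snRNA genes among them, and the B1-like reads a, b and c matched none. Since transcripts hold repeats too, such a match gives no origin.

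Copies of single sequences were compared between IR and control with edgeR's quasi-likelihood test, fitted over all sequences that passed a filter on low counts. The filter kept 124 sequences, 16 of them shared, and 10 of the 124 (8.06%) passed an adjusted p of 0.05, 3.23% lower and 4.84% higher. Of the 16 shared sequences, 2 fell and none rose; the other shared sequences were too rare for this test. The median log2 fold change was -0.21 over the 16 and 0.06 over the 124. With file totals in place of TMM, a scaling factor from the bulk of features, the median of the 124 moved to -0.19, a shift to which single values should be referred.

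B1-like a, a read of 22 nt, had 31, 16 and 32 copies in the controls and 1, 9 and 0 in IR. All 3 controls were above all IR libraries. Its log2 fold change was -2.80 (SE 0.665, edgeR adjusted p = 0.0258). The A-ended form was too rare for the test and had 24, 9 and 8 copies against 1, 2 and 1. The G-ended form had 10, 1 and 3 against 3, 2 and 0, which overlap. B1-like a had 6 places, on 15-qE1-1119 in sense and on 6-qC3-6258 and pi-Zfp382 in antisense, and 83.3% of its places were antisense. Without control replicate 3 the log2 fold change was -2.82 with an edgeR adjusted p of 0.104, and without IR replicate 2, which holds 9 of its 10 IR copies, it was -5.18 (edgeR adjusted p = 0.000239).

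B1-like b, of 20 nt, had 14, 14 and 21 copies in the controls and 3, 5 and 0 in IR. The groups did not overlap, and the log2 fold change was -2.42 (SE 0.608, edgeR adjusted p = 0.0258). Over the alternative settings its edgeR or DESeq2 adjusted p ran from 0.00734 to 0.12. With 1 library omitted it missed the threshold for IR replicate 1 (0.0612), control replicate 2 (0.066) and control replicate 3 (0.12), and so it did when rare reads were not filtered out (0.055). It lay at 27763 to 27782 of the transcript 6-qD1-2831.2, on the sense strand. B1-like c lay at 27761 to 27781 of the same transcript on the antisense strand. Over the 19 positions they share, the complement of B1-like c differed from B1-like b at 2 bases, so at least 1 of the reads was placed with mismatches. B1-like c had 53, 14 and 11 copies in the controls and 4, 6 and 10 in IR. The closest values were 11 and 10, and scaled to the file totals the groups overlapped. The log2 fold change was -1.73 (SE 0.683, edgeR adjusted p = 0.156). Control replicate 1 decided much of this value, which was -0.64 without it (edgeR adjusted p = 0.748). Without control replicate 2 or IR replicate 3 it was -2.08 or -2.47 (edgeR adjusted p = 0.0474 and 0.0472).

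B2-like a had 29, 17 and 47 copies in the controls and 13, 11 and 9 in IR, with no overlap. Its log2 fold change was -1.28 (SE 0.382, edgeR adjusted p = 0.0714). It passed the threshold with file totals as library size (0.0225) and without control replicate 2 (0.0148) or IR replicate 3 (0.0452). B2-like b had 18, 12 and 20 copies against 1, 12 and 4, and the highest IR copies equalled the lowest control copies (log2 fold change -1.37, SE 0.588, edgeR adjusted p = 0.194). Both lay on the sense strand of 14-qC1-1010 and 14-qC1-1261, at 5742 to 5761 of the first for each. Since they differ by A5G, at least 1 of the reads was placed with a mismatch.

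The most abundant read, tRNA-Ala-type, had 89, 99 and 97 copies in the controls and 75, 91 and 160 in IR. IR replicate 3 was the highest of all 6 and IR replicate 1 the lowest (log2 fold change 0.52, SE 0.517, edgeR adjusted p = 0.625). Its T-ended form had 29, 23 and 36 copies against 12, 14 and 27, with overlap (log2 fold change -0.44, SE 0.458, edgeR adjusted p = 0.632). Without IR replicate 3 the T-ended form was at -1.26 with an edgeR adjusted p of 0.0358, and its set of 4 genes at -1.49 with 0.0217. U2-type b had 22, 20 and 22 copies against 27, 31 and 17 (log2 fold change 0.39, SE 0.293, edgeR adjusted p = 0.489). The 4.5SH-type read had 28, 10 and 42 copies against 49, 35 and 32 (log2 fold change 0.76, SE 0.418, edgeR adjusted p = 0.342). U2-type a had 17, 15 and 16 copies against 16, 29 and 10 (edgeR adjusted p = 0.632). With all 6 libraries none of these 5 passed the test.

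Reads with the same first 20 bases were also summed, single-gene sequences included, to join forms that differ at the 3′ end. Of 104 sums that passed the filter 20 passed the test. Of the 47 whose sequences together lie on 2 or more piRNA genes, 9 passed it, 6 lower and 3 higher. The sum of B1-like a was 78, 28 and 57 copies in the controls and 5, 19 and 1 in IR (log2 fold change -2.61, SE 0.593, edgeR adjusted p = 0.00734). That of B2-like a was 45, 29 and 60 against 20, 17 and 12 (log2 fold change -1.30, SE 0.359, edgeR adjusted p = 0.0217), and all of its sequences were shared. B2-like c, the start of a 42-nt read on 10-qC1-12816 and pi-Phf20, is given here as such a sum. It had 11, 14 and 22 copies against 3, 9 and 4, with no overlap (log2 fold change -1.39, SE 0.525, edgeR adjusted p = 0.0842). A 42-nt read on 14-qC1-1010, 14-qC1-1261 and pi-Zfp382 starts with B2-like a. The rise at 42 nt, the sums of B2-like a and c and the sets of these genes described below thus hold reads in common. They are not separate results. The sum of B1-like b also fell (edgeR adjusted p = 0.00734). That of B1-like c was 83, 26 and 27 copies against 10, 16 and 15 and also fell (edgeR adjusted p = 0.0479), with 83 of its 136 control copies in control replicate 1. Not all of the 9 sums are mainly of shared reads. Shared sequences held 0.429% to 13.3% of the copies of the 3 higher sums. Among the 6 lower sums they held 6.94% in the one with the smallest p (389 control and 101 IR copies, edgeR adjusted p = 0.00162), 50.9% in another and 88.7% or more in the 4 of B1-like a, b and c and B2-like a. The tRNA-Ala-type sum was 223, 245 and 271 copies against 177, 232 and 343 (log2 fold change 0.27, SE 0.435, edgeR adjusted p = 0.708).

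**Figure D4:**
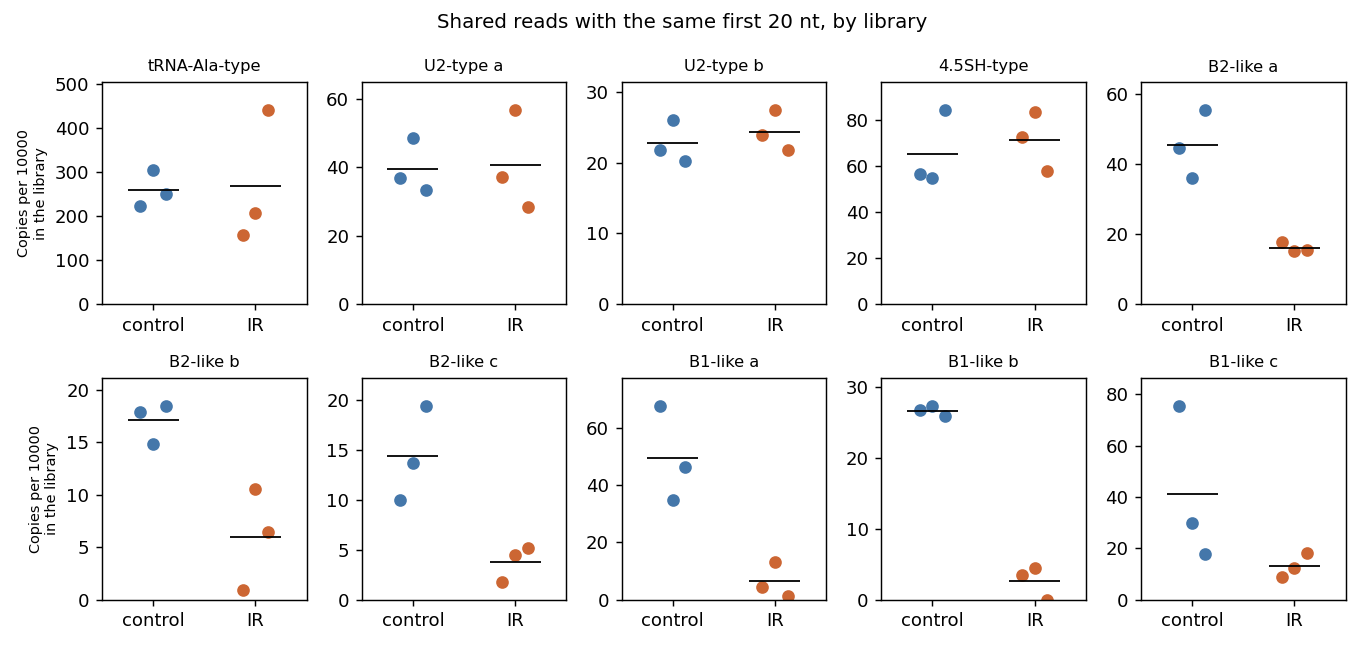
Copies per 10000 copies of the file for shared reads with the same first 20 bases, 1 point per library (blue control, orange IR, black line mean of 3), with a separate vertical scale from 0 in each panel. The B2-like a, B2-like b, B2-like c, B1-like a and B1-like b panels show controls above IR, while B1-like c, tRNA-Ala-type, U2-type and 4.5SH-type panels overlap.

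Summing reads by the exact set of genes gave the same direction for several sets. Of 127 sets that passed the filter, single genes included, 13 (10.2%) passed the test, 7.09% lower and 3.15% higher. Of the 22 sets of 2 or more genes, 5 passed and all 5 were lower. The median log2 fold change was -0.66 over the 22 and 0.05 over the 127. The strongest was 6-qD1-2831 with 7-qD1-16444, which holds B1-like b, with 27, 23 and 29 copies against 5, 5 and 0 (log2 fold change -3.06, SE 0.497, edgeR adjusted p = 0.00305). The set 15-qE1-1119, 6-qC3-6258 and pi-Zfp382, which holds B1-like a, had 48, 17 and 45 against 5, 13 and 1 (log2 fold change -2.61, SE 0.536, edgeR adjusted p = 0.0107). In neither set did the groups overlap.

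The other 3 sets hold B2-like reads. The set 14-qC1-1010 and 14-qC1-1261, with 101 sequences, had 91, 62 and 104 copies against 43, 55 and 37 (log2 fold change -1.01, SE 0.217, edgeR adjusted p = 0.0117). The set of these 2 with pi-Zfp382 had 19, 15 and 18 against 7, 8 and 4 (log2 fold change -1.54, SE 0.315, edgeR adjusted p = 0.0107). The set 10-qC1-12816 and pi-Phf20 had 23, 21 and 35 against 7, 13 and 7 (log2 fold change -1.63, SE 0.34, edgeR adjusted p = 0.0107). All 3 sets had every control above every IR library. The genes 14-qC1-1010 and 14-qC1-1261 hold B2-like a at positions 1 base apart and carry the same band, so whether they are copies or overlapping units was not tested. A single sequence held 32.1% to 71.8% of the copies in these 5 sets. With each distinct sequence counted once, edgeR called none of the 11 sets tested (3 at an unadjusted p under 0.05). Of the 5 called sets only 2 passed the filter of that test. The set 10-qC1-12816 and pi-Phf20 was then at -1.21 (edgeR adjusted p = 0.117) and the pair on band 14-qC1 at -0.10 (edgeR adjusted p = 0.814). On copies, DESeq2 called 7 of the 22 sets, 6 lower and 1 higher.

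The higher one was 10-qB4-6488 with pi-D730040F13Rik, with 11, 5 and 10 copies in the controls and 22, 11 and 52 in IR. Its log2 fold change was 1.73 (SE 0.656, edgeR adjusted p = 0.161; DESeq2 adjusted p = 0.0458). By edgeR it was also past the threshold without a filter (0.0146) and without IR replicate 2 (0.0136), while without IR replicate 3, which holds 52 of its copies, the log2 fold change was 0.65 (adjusted p = 0.416).

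The set with most copies, pi-D10Wsu102e with pi-Ppp1r15b, had 209, 237 and 256 copies in the controls and 175, 228 and 333 in IR (log2 fold change 0.05, SE 0.33, edgeR adjusted p = 0.928). The U2-type set, 5-qG3-23659 with 7-qF3-3125, had 148, 144 and 122 against 145, 181 and 66 (log2 fold change -0.25, SE 0.263, edgeR adjusted p = 0.593). Both overlapped.

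Shared copies were then summed for each piRNA gene and fitted together with the single-gene copies of each gene, a comparison chosen after seeing the data. A shared read counts for every gene that holds it, so genes with reads in common are not independent. Of 197 sums, 21 (10.7%) passed the test, 6.09% higher and 4.57% lower, and of the 92 sums of shared copies 13 passed, 8 higher and 5 lower. The median log2 fold change was -0.01 over the 92 and 0.07 over the 197.

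The falls were led by pi-Zfp382, named after a zinc finger gene at chr7:30121942-30134950 on the plus strand of mm10. It had 132, 71 and 110 shared copies in the controls and 29, 40 and 24 in IR (log2 fold change -1.80, SE 0.231, edgeR adjusted p = 8.26e-05). Its single-gene copies were 25, 19 and 27 against 14, 29 and 21, with overlap (log2 fold change -0.20, edgeR adjusted p = 0.744). Whether the 2 changes differ was not tested. The gene 6-qC3-6258 had 89, 38 and 74 shared copies against 15, 30 and 14 (log2 fold change -1.81, edgeR adjusted p = 0.00168). B1-like a alone made 21.9% of the shared copies of the first and 34.2% of those of the second. Without the most abundant shared sequence of each gene both still fell, by 1.55 and 1.35 on the log2 scale (edgeR adjusted p = 0.00119 and 0.0233). The genes pi-Abl2, 6-qD1-2831 and pi-Cbfa2t2 also fell, with log2 fold changes of -1.42, -0.73 and -1.38. Without their most abundant shared sequence the first 2 were at -1.22 and -0.56 (edgeR adjusted p = 0.0795 and 0.0663).

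Of the 8 rises 6 were spread over many rare reads, and the 2 largest, described last, rested on 1 read. The gene 3-qA2-617 had 190, 131 and 265 shared copies in the controls and 372, 395 and 285 in IR, with no overlap (log2 fold change 0.80, SE 0.174, edgeR adjusted p = 0.0095). It held 1554 shared sequences, of which 95.6% had 1 copy, and the most abundant had 9 copies. Its single-gene copies rose as well, from 49, 28 and 45 to 118, 104 and 63 (log2 fold change 1.15, edgeR adjusted p = 0.0027), and it was the gene called on both kinds of read. The genes 13-qA5-208, 14-qA3-2286 and 7-qD1-9417 rose by 0.67, 0.75 and 0.84 on the log2 scale (edgeR adjusted p = 0.0426, 0.0252 and 0.014). They share reads with 3-qA2-617: 885 of the 1417 shared sequences of 13-qA5-208 (62.5%, and 56.9% of those of 3-qA2-617), 412 of 833 of 14-qA3-2286 and 300 of 419 of 7-qD1-9417. Together the 4 genes held 2488 shared sequences. As a description, these made 3.23%, 2.73% and 4.14% of the file in the controls and 5.37%, 5.77% and 5.69% in IR. The repeats behind these reads were not named here.

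The smaller genes 2-qF1-2536 and 7-qD2-24830 rose by 1.27 and 1.25 on the log2 scale (edgeR adjusted p = 0.0266 and 0.0328). Of their shared sequences, 59 of 133 and 48 of 95 also lay on 3-qA2-617, so these rises are not independent of it. The gene pi-D10Wsu102e held 45.5% of the shared sequences of 3-qA2-617 and was not called (log2 fold change 0.23, edgeR adjusted p = 0.396). The rises of pi-Slc43a2 and pi-Tacc1, of 1.91 and 1.55, rested on 1 read of 20 nt that both hold. It had 1, 0 and 0 copies in the controls and 0, 34 and 18 in IR, so it was absent from IR replicate 1. Without each gene's most abundant read the log2 fold changes were 0.74 and 0.32 (edgeR adjusted p = 0.269 and 0.625).

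The gene-level counts depended on single libraries. Without control replicate 2 or without IR replicate 2, 2 sums of shared copies were called, both lower. Without control replicate 3, 20 were called, 13 higher and 7 lower. In 24 to 32 nt reads edgeR called none of the 56 sums tested (11 at an unadjusted p under 0.05).

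Over the 69 genes tested on both kinds of read, 48 had the same sign, with a Spearman correlation of 0.408 across genes. The genes share libraries and reads, so this is a description. Of the 10 genes called on shared reads and tested on both, 7 had the same sign on single-gene reads. The 3 others were 7-qD1-9417, 7-qD2-24830 and 6-qD1-2831.

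**Figure D5:**
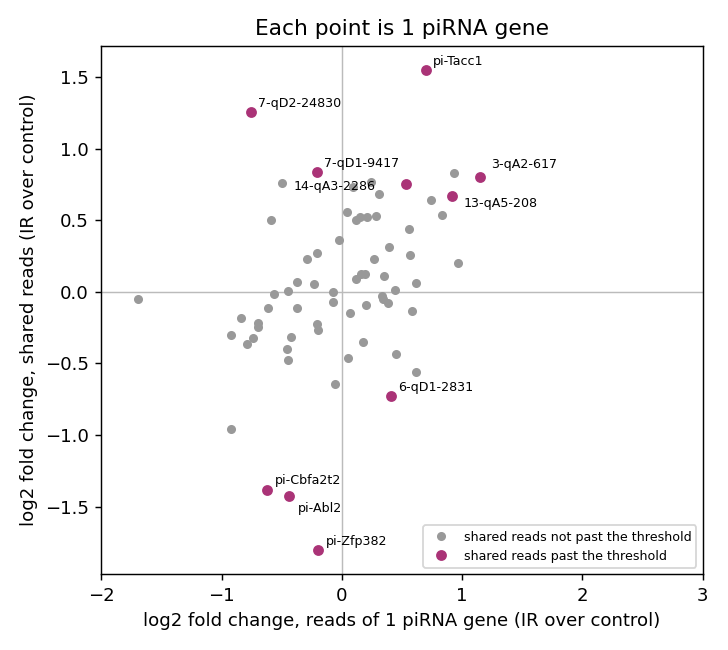
Log2 fold change (IR over control) of shared reads against that of single-gene reads, 1 point per piRNA gene tested on both (69 genes), with genes past adjusted p = 0.05 on shared reads in purple. Of the 10 purple genes 7 have the same sign on both axes, and pi-Zfp382 lies lowest, at -1.80.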

How the data were processed

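The deposited files give, per the file contents, 1 line for each place of a read: its sequence, the count of its copies, the number of its places and the strand. The counts are whole numbers that the authors deposited without normalization. RNA of 18 to 50 nt was size-selected, per the labels' protocols, and the build was mm10, per the submitters' processing notes. Not given in the sources used here are the aligner and its settings, nor is any removal of tRNA or other RNA reads. Of 32565 positions at which a shared read starts, 5722 (17.6%) carried unlike sequences.

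Copies entered once per sequence and library. Tests were edgeR 4.0.16 (TMM, quasi-likelihood, Benjamini-Hochberg, adjusted p under 0.05; for gene sums, the file total as library size), DESeq2 1.42.0 as an alternative, and exact permutation and sign-flip tests over libraries. Groups held 3 libraries each. On simulated data with 24 of 124 sequences changed, edgeR recovered 23.8% of 2-fold and 90% of 4-fold changes. All simulated sequences had the same dispersion. The rates may not hold for reads that vary more between libraries, such as B1-like c. Members, lists and tests were chosen with earlier results of these data known. Sequences were named when called, among the 10 most abundant, leading a class of places, or with most places or genes. Sets of genes were named when called or among the 10 with most copies, and genes likewise by copies divided over places. The gene sums, reads of 24 and 42 nt and the omission of leading reads were chosen after seeing the data. Replicate numbers were not used as pairs in the main tests, and whether they pair the libraries is not known.
Exact matches were sought in GENCODE M21 transcripts. Reads with a place on chromosome 18 are not printed.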

Additional observations from a re-analysis of the deposited data

How the results depend on the processing

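The files hold few copies, and these limits were measured. Without a filter on low counts, 4 shared sequences (2 higher, 2 lower) and 8 sets of genes (2 higher, 6 lower) were called in place of 2 and 5, all lower, and summing by the first 20 bases gave 9. In reads of 24 to 32 nt edgeR called 0 sequences, 0 sets and 0 gene sums, with 0, 0 and 11 at an unadjusted p under 0.05. Only 5 shared sequences, 5 sets and 56 gene sums were tested there. The 2 called sequences, of 22 and 20 nt, lie outside this range, so it could not call them. Counting distinct sequences once gave 0 sets. Leaving out 1 library gave 1 (without control replicate 3) to 6 sequences (without IR replicate 3; 4 without control replicate 2 or IR replicate 2). It gave 6 to 9 sets (9 without IR replicate 2, 8 without IR replicate 3) and 2 to 20 gene sums. Gene sums called were 8 with DESeq2, on which 8 adjusted p were not given, and 8 without each gene's leading read.

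The correlation of deviations between libraries of the same number was -0.12 to 0.12 for gene sums. It was -0.099 to 0.11 for sets of genes and 0.042 to 0.15 for sequences. With 3 libraries a group such values cannot tell whether the numbers pair the libraries. With the replicate number as a block, 2 sequences, 4 sets and 6 gene sums were called, and the set with B1-like a had an adjusted p of 0.0909.

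The direction of several small differences between IR and control turned. The share of shared copies differed by 0.473 points, with a range of -0.598 (IR replicate 3 left out) to 1.56 over the omission of each library. Omitting each library also moved the share at 5 to 19 places from -0.0334 to 2.40 and that at 20 or more from -0.0960 to 0.462. With 3 or more genes the share at 2 to 4 places differed by 2.41 and at 5 to 19 by -2.76, and on 2 or more chromosomes by 0.0799 and -0.244. The antisense share differed by 1.17 in reads of 24 to 32 nt, and the share of 24 to 32 nt by -0.815 with sequences counted once. Against single-gene reads, the excess of 24 to 32 nt was 4.93 points on 2 or more chromosomes (exact sign-flip p = 0.031), and first T was -2.94 points with sequences counted once. With 1 library omitted, first T ran from -12.3 to -10.5 and antisense from 24.7 to 26.1 points, where the exact test over 5 libraries cannot go below p = 0.062. The cause was not tested.

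Among named items none that passed the test turned. Omitting each library moved the log2 fold change from -0.31 to 0.87 for GGGGATGTAGCTCAGTGGTAGAGC, from -0.18 to 0.61 for GGGGATGTAGCTCAGTGGTA, from -0.41 to 0.057 for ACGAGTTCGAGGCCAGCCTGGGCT and from -0.052 to 0.52 for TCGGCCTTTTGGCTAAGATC. It ran from -0.55 to 0.23 for pi-D10Wsu102e with pi-Ppp1r15b and from -0.78 to 0.071 for pi-D730040F13Rik with pi-Il17rd and pi-Mrs2. For gene sums it ran from -0.24 to 0.062 for 10-qB4-6488, from -0.57 to 0.24 for pi-Ppp1r15b and from -0.35 to 0.010 for 5-qG3-23659. The 20-base read was -0.035 with file totals. The pair pi-D10Wsu102e with pi-Ppp1r15b was -0.045 scaled to tested sets, -0.055 without a filter, -0.064 with the replicate block and -0.11 with sequences counted once. In 24 to 32 nt reads pi-D730040F13Rik with pi-Il17rd and pi-Mrs2 was 0.080, pi-Ppp1r15b 0.060 and 14-qC1-1010 0.44.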
